A study of Mus musculus with 18 samples.

Results

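The type I interferon stimulated genes described here are a list of 38 mouse genes, chosen by name, whose transcription is raised when a cell receives type I interferon. All 38 were found among the 15596 gene symbols of the count table, 37 under the listed symbol and Ddx58 under its current symbol Rigi. Every one of the 38 had reads in both cultured cells and tumours and passed the filter on low counts in each comparison, so no member was lost before testing. No member had a row of counts identical to that of another symbol.

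The data are RNA-seq counts from MC38, a mouse colon carcinoma line of C57BL/6 origin, grown either in culture or as tumours. The labels name 2 genotypes, Mbtps1 WT and Mbtps1 KD, called control and knockdown here. Mbtps1 encodes site-1 protease, a Golgi enzyme that cuts membrane-bound transcription factors. There were 3 control and 3 knockdown libraries of cells, and 5 control and 5 knockdown libraries of tumours. How the knockdown was made, how many clones it covers, what the control line carries, the host strain and age, the days of tumour growth and any treatment are not given in the sources used here. Replicates are numbered in the labels, but nothing says whether they are separate cultures or separate mice, and p-values reflect differences among libraries that may be partly technical. Tumour libraries hold RNA of the MC38 cells together with RNA of the host cells around them, so that fewer cells of a type and less RNA per cell cannot be told apart.

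Total counts ran from 14240353 to 15515405 per library in cells and from 19630410 to 32655739 in tumours. Mbtps1, the targeted gene, stood at 129, 135 and 118 CPM (the count scaled by the total count of its library) in control cells and at 37.0, 35.7 and 34.8 CPM in knockdown cells. In tumours it was 114, 110, 130, 129 and 122 CPM in controls and 50.1, 41.4, 57.1, 56.3 and 54.1 CPM in knockdown libraries, so that each knockdown library lay below every control. Of the leukocyte markers, 6 of 7 were at 0 in all cell libraries, Ptprc among them. No symbol above 0 had fewer than 13 reads summed over the cell libraries, so a 0 may hide a few reads. The epithelial markers Epcam, Cdh1 and Krt20 were also at 0 in cells, and Krt8 had a mean of 2.77 CPM in control cells, while the fibroblast markers Col3a1 and Pdgfra had means of 1146 and 209 CPM there. The 4 of 7 listed markers of colon epithelium that were in the table were thus at or near 0 in these cells. Krt18, Vil1 and Cdx2 were not in the table, and Krt8 was at 0 in all tumour libraries.

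Type I interferons bind the receptor pair IFNAR1 and IFNAR2, whose kinases JAK1 and TYK2 phosphorylate STAT2. STAT2 and IRF9 are parts of the complex ISGF3, which binds the interferon-stimulated response element (ISRE) in promoters. The products fall into distinct roles: antiviral effectors such as the IFIT, Mx and OAS proteins, sensors of foreign nucleic acid, feedback regulators such as USP18, and parts of the signalling chain itself such as STAT2, IRF7 and IRF9. In tumours the same genes are read in cancer cells and in infiltrating immune cells, and interferon gamma, which acts mainly through a different DNA element (GAS), raises many of them too.

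Promoter windows of 300 bases (250 before and 50 after the start site) were found for 29 of the 38 members in RefSeq on build GRCm38.p6, and 9 had no entry. The core letters of an ISRE, GAAA, any 2 bases and GAAA again on either strand, occurred in 13 of the 29 members (44.8%), against 461 of 11854 genes of the table with a window (3.89%) and 3.44% of all 32851 windows. The GAS letters TTCNNNGAA, which read the same on both strands, occurred in 8 of the 29 members (27.6%), against 8.28% of the genes of the table. Of the 21 ISRE matches in the windows of members, 2 overlapped a GAS match. A match is only a run of letters. All members with ISRE letters that were called in a knockdown comparison below, or in the difference between tumours and cells, are shown with 6 bases on each side of the match, 5′ to 3′ on the strand of the gene, with the matched letters in capitals.
Ifit3 (chr19:34583367-34583388, plus strand): ggtaagTTTCACTTTCctcttc
Ifit3, second block (chr19:34583401-34583422, plus strand): agtctgTTTCAGTTTCtacttt
Isg15 (chr4:156200869-156200902, minus strand): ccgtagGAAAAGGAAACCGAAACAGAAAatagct
Rsad2 (chr12:26456557-26456578, minus strand): tccaacTTTCATTTTCagaaaa
Bst2 (chr8:71537581-71537608, minus strand): ttccagGAAAATGAAACTGAAAggctgc
Ifitm3 (chr7:141010727-141010748, minus strand): attcagGAAAAGGAAActtctg
Ifitm3, second block (chr7:141010710-141010731, minus strand): ttctgaGAAACCGAAActgccg
Stat2 (chr10:128270270-128270291, plus strand): ccctggTTTCAGTTTCctttcc
Rigi (chr4:40239808-40239829, minus strand): aggcagTTTCGATTTCctatgg

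The Isg15 run holds 3 overlapping matches in 22 bases that start 78 bases before the start site, and the Ifit3 promoter holds 2 separate matches that start 156 and 122 bases before it. To show these beside a member whose window held no match, the 250 bases before the start site are given for Isg15, for Ifit3, and for Oasl1, the member lowered most in knockdown tumours.
Isg15 (chr4:156200819-156201068, minus strand): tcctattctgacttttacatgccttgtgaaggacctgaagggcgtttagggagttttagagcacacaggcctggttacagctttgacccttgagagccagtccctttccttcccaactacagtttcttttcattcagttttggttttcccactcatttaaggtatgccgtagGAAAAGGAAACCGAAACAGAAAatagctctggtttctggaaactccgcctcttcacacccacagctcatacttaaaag
Ifit3 (chr19:34583279-34583528, plus strand): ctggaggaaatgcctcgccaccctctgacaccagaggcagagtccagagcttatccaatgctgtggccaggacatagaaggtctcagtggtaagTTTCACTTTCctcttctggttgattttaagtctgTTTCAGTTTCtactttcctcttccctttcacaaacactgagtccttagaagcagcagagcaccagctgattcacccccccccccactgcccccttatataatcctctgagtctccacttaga
Oasl1 (chr5:114922990-114923239, plus strand): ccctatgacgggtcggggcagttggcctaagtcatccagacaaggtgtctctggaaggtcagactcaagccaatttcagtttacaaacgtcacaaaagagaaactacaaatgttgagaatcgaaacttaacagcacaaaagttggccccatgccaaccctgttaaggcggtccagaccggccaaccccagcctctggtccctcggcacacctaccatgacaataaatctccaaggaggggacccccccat

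One control library of cells sat apart for these genes. Control replicate 3 was the lowest of the 3 control libraries for 38 of 38 members, which was the case for 40.9% of all genes tested in cells. It was the lowest of all 6 cell libraries for 33 members, against 20.5% of all genes. The median member stood 0.88 lower (log2) in it than in the mean of the other controls, a value of -0.88 against -0.03 over all genes tested. The members were not lowered to the same degree: Usp18 in control replicate 3 stood at 26.5% of the mean of controls 1 and 2, Rsad2 at 31.9%, Ifit1 at 40.2% and Isg15 at 42.9%, whereas Adar stood at 85.3%, Ifitm3 at 87.5% and Samhd1 at 95.1%. In the same library, 25 of 31 other interferon-induced genes (80.6%) and 15 of 20 interferon gamma response genes (75.0%) were the lowest of the 3 controls, with median log2 differences of -0.35 and -0.34. Among the knockdown cells, replicate 3 was the lowest of its 3 libraries for 28 of 38 members (73.7%, against 40.3% of all genes), with a median log2 difference of -0.31. The plot of deviations by library shows both, and the counts and the members discussed at length in cells are given with and without control replicate 3.

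**Figure D1:**
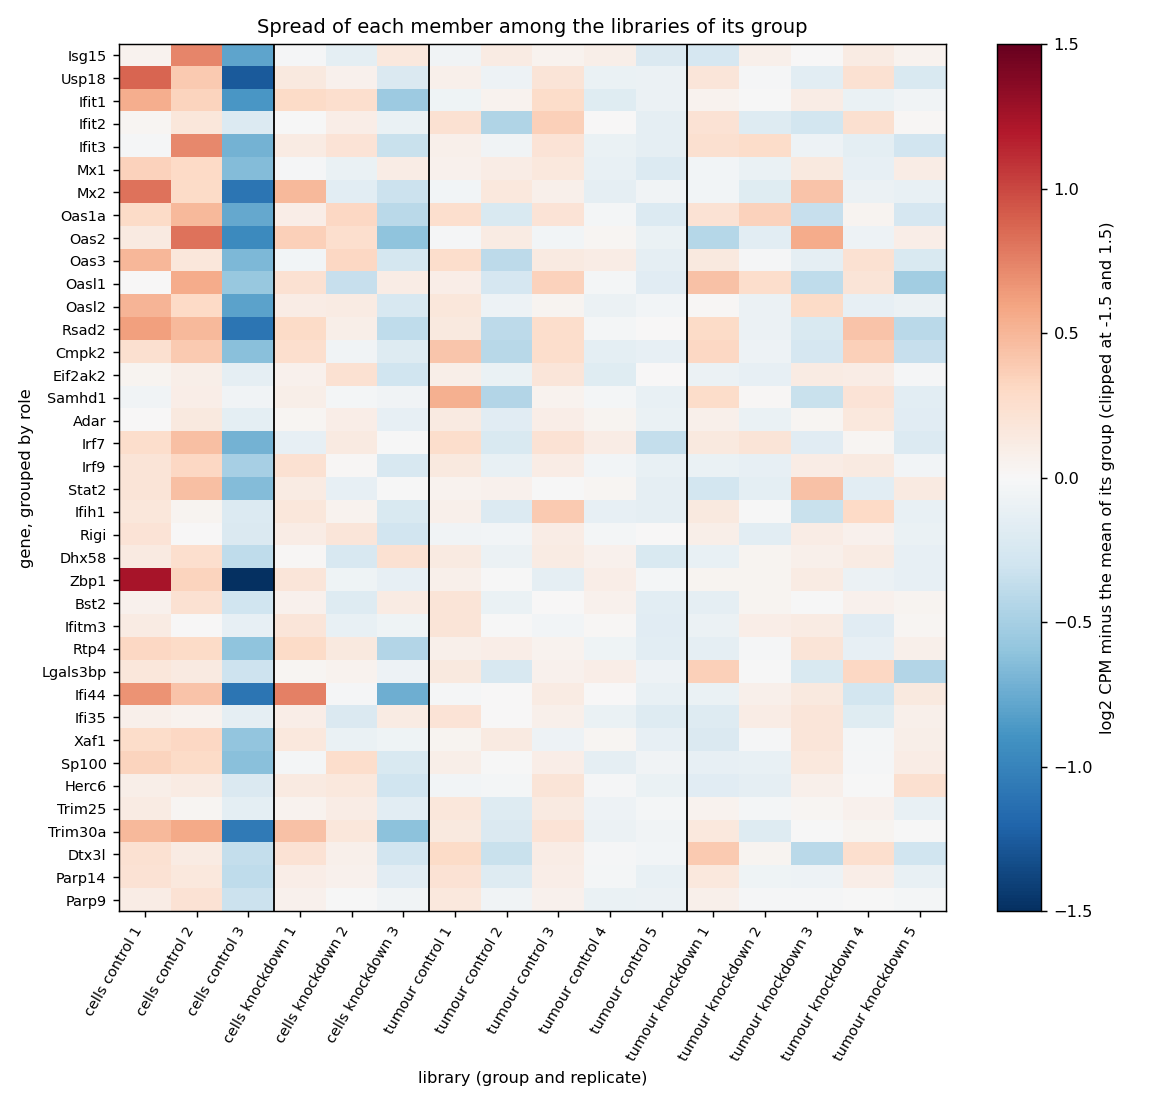
Each cell of the plot is the log2 CPM of a member in a library minus the mean of its group, for the 16 libraries in columns and the 38 members in rows grouped by role; red is above and blue below the group mean, clipped at -1.5 and 1.5. The column of control cell replicate 3 is blue for all 38 members, and the tumour columns are paler than the cell columns.

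In cultured cells the comparison asks whether the knockdown itself, without host cells, moves these genes. The members that rose were Zbp1, Ifit3, Bst2, Lgals3bp and Ifitm3, which made 5 of 38, none fell, and 33 did not pass (edgeR quasi-likelihood test, adjusted p under 0.05 over 11905 genes). Over all genes tested 9.33% were called, 3.76% as higher and 5.57% as lower. At an unadjusted p under 0.05 there were 16 members, and the DESeq2 test called 7 higher and 1 lower. The log2 fold change was positive for 31 members and negative for 7, with a median of 0.31 against 0.01 over all genes. The knockdown libraries all lay above the control libraries for 13 members and all below for 1, Trim25, where the groups did not overlap in either direction for 31.8% of all genes. Without control replicate 3, only Lgals3bp still passed as higher and Stat2 passed as lower, where 6.54% of all 12084 genes tested were called, 2.23% as higher and 4.30% as lower. The 2 called members are thus near the share of all genes in that fit. In it 23 members had a positive fold change, the median was 0.15, and the groups did not overlap for 13 members that were higher and 5 that were lower, against 44.8% of all genes in either direction. Leaving out knockdown replicate 1 left 0 members called, and leaving out control replicate 1 or 2 left 1 or 3 as higher.

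Zbp1, a sensor of Z-form nucleic acid that can start necroptosis, had the steepest change and few reads, as many over the 6 libraries as Oasl1. Its counts were 7, 4 and 1 in control cells and 24, 20 and 20 in knockdown cells. In CPM that was 0.490, 0.264 and 0.0702 against 1.59, 1.34 and 1.29. The groups did not overlap, and the log2 fold change was 2.31 with a standard error (SE) of 0.51 (edgeR adjusted p = 0.0193). The ratio of the summed reads, each divided by the library totals, was 5.12, with an exact 95% interval of 2.74 to 10.4 that covers counting error only. Without control replicate 3 the log2 fold change was 1.88 (edgeR adjusted p = 0.051). The other sensors were Rigi, Ifih1, which encodes MDA5, and Dhx58, which encodes LGP2, a regulator of both. None passed, with log2 fold changes of 0.06, -0.12 and 0.49, and of -0.035, -0.21 and 0.33 without control replicate 3.

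Among the IFIT proteins, which bind viral RNA, Ifit3 alone rose. It stood at 4.55, 7.59 and 2.81 CPM in control cells and at 11.3, 11.99 and 8.25 CPM in knockdown cells. The groups came close at control replicate 2 and knockdown replicate 3 without overlapping, and the log2 fold change was 1.06 (SE 0.29, edgeR adjusted p = 0.0427). Without control replicate 3 it was 0.79 (edgeR adjusted p = 0.107). Ifit1 and Ifit2 had values of 0.27 (SE 0.31) and -0.10 (SE 0.12). Ifit3 has a close copy, Ifit3b, whose value of 0.97 (SE 0.35, edgeR adjusted p = 0.106) did not pass, and reads that fit both copies could have been split or dropped by the counting.

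Of the genes for membrane-associated and secreted proteins, 3 of 4 rose. Bst2 encodes tetherin, which holds budding virus at the cell surface. It stood at 52.2, 58.6 and 40.4 CPM in controls and at 76.8, 64.2 and 79.7 CPM in knockdown cells (log2 fold change 0.54, SE 0.13, edgeR adjusted p = 0.0303). Lgals3bp, a secreted glycoprotein that binds galectins, stood at 175, 171 and 126 CPM against 228, 233 and 213 CPM (0.51, SE 0.12, edgeR adjusted p = 0.0250). Ifitm3 hinders the entry of enveloped virus from endosomes. It stood at 97.3, 89.2 and 81.6 CPM against 134, 109 and 113 CPM (0.40, SE 0.11, edgeR adjusted p = 0.0367). In these 3 genes each knockdown library lay above every control library, and the differences were smaller than those of Zbp1 and Ifit3. Without control replicate 3 their log2 fold changes were 0.40, 0.37 and 0.35, with edgeR adjusted p of 0.0803, 0.0482 and 0.106. Rtp4, a chaperone of membrane receptors, had a value of 0.25 (SE 0.24). Ifitm2, the close copy of Ifitm3, had a value of 0.17 (edgeR adjusted p = 0.336).

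The remaining antiviral effectors did not pass in cells, though several had values as large as those that did. Rsad2 encodes viperin, which makes a chain-ending nucleotide. It stood at 8.96, 8.18 and 2.74 CPM in controls and 17.1, 14.9 and 10.7 CPM in knockdown cells (log2 fold change 1.09, SE 0.33, edgeR adjusted p = 0.0598). Isg15, the ubiquitin-like protein, stood at 10.1, 16.1 and 5.62 CPM against 18.8, 17.1 and 21.3 CPM (0.84, SE 0.27, edgeR adjusted p = 0.0784). Mx1, a GTPase that traps viral nucleocapsids, stood at 2.24, 2.18 and 1.12 CPM against 3.45, 3.28 and 3.80 CPM (0.91, SE 0.30, edgeR adjusted p = 0.0765). In all 3 the groups did not overlap, and control replicate 3 was the lowest library. Without it the values were 0.72, 0.54 and 0.66, with edgeR adjusted p of 0.0826, 0.145 and 0.151. The 5 members of the oligoadenylate synthetase family, which make the signal that activates RNase L or share that fold, had positive values from 0.10 (Oas1a) to 0.75 (Oas2), and none passed. Without control replicate 3 they ran from -0.19 (Oas1a) to 0.42 (Oas3 and Oas2).

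The members that act in signalling gave smaller values in cells. Irf7, the factor that amplifies interferon transcription, had a log2 fold change of 0.20 (SE 0.26), and Irf9 had 0.18 (SE 0.19); without control replicate 3 they had -0.064 and -0.030. Usp18, the protease that removes ISG15 and blocks the receptor, stood at 10.5, 7.52 and 2.39 CPM in controls and 7.64, 7.23 and 5.93 CPM in knockdown cells, which overlapped (0.02, SE 0.38, and -0.38 without control replicate 3). Stat2 stood at 45.1, 53.9 and 25.2 CPM in controls and 37.9, 31.9 and 34.5 CPM in knockdown cells. Its knockdown libraries lay below controls 1 and 2 and above control 3, so that its log2 fold change was -0.26 (SE 0.21, edgeR adjusted p = 0.451) with that library and -0.51 (SE 0.12, edgeR adjusted p = 0.041) without it. Trim25, the ubiquitin ligase that acts on RIG-I, stood at 139, 130 and 115 CPM against 105, 110 and 90.7 CPM (-0.34, SE 0.11, edgeR adjusted p = 0.0685), and without control replicate 3 the value was -0.40 (edgeR adjusted p = 0.0628). The ADP-ribosyltransferase genes Parp14 and Parp9 had values of 0.05 and 0.19. Eif2ak2, which encodes the kinase PKR, Adar, which edits double-stranded RNA, and Samhd1, which breaks down nucleotides, had values of -0.02, 0.04 and 0.10.

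**Figure D2:**
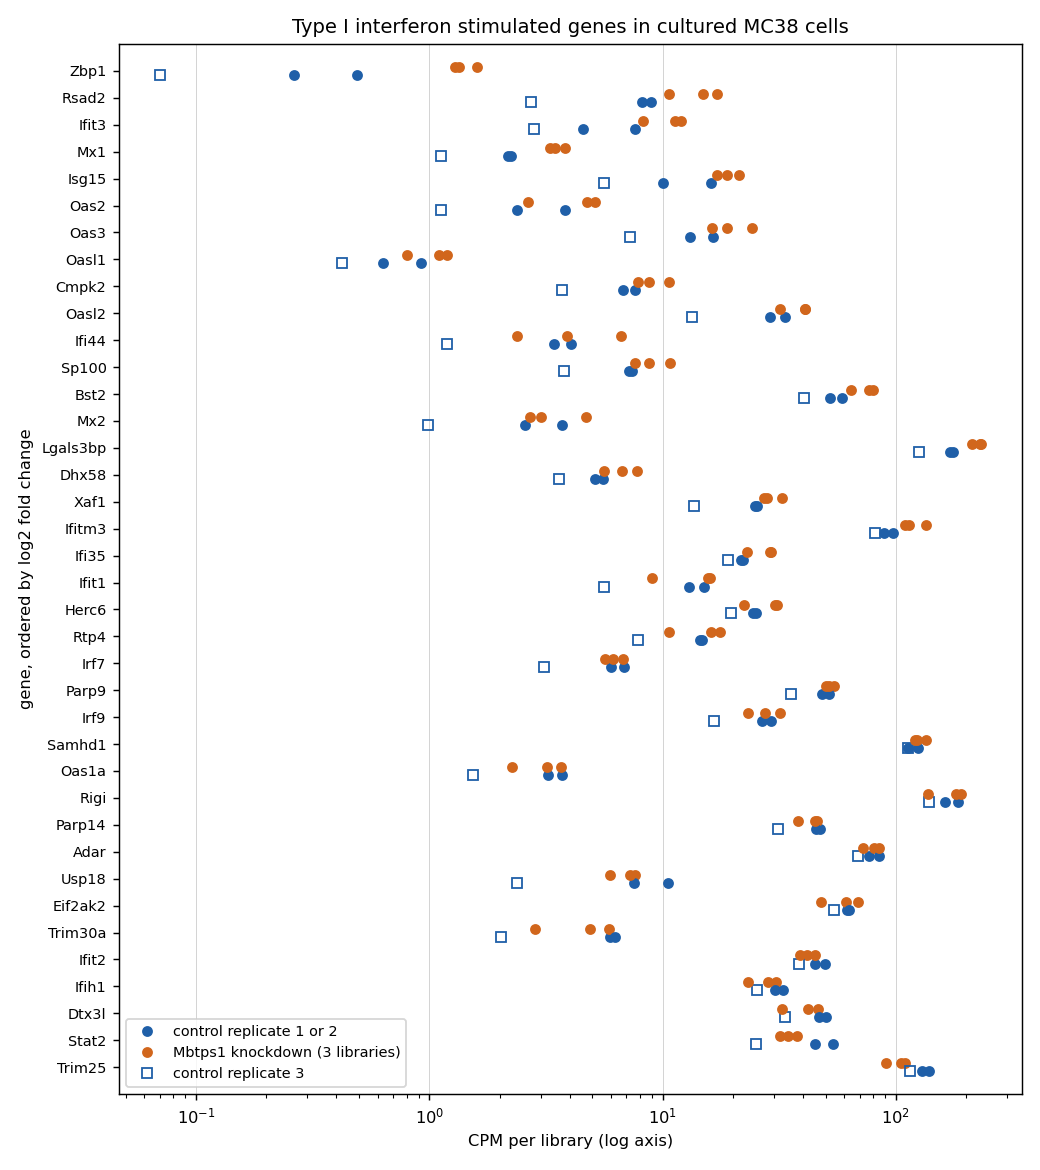
CPM of each of the 38 members in the 6 libraries of cultured cells, on a log axis, with members ordered by log2 fold change; filled blue circles are control replicates 1 and 2, open blue squares control replicate 3 and orange circles the 3 knockdown libraries. The open square is the lowest of the blue points for all 38 members, and for Zbp1, Rsad2, Ifit3, Mx1 and Isg15 all orange points lie to the right of all blue ones.

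In tumours the comparison asks how the list reads when MC38 cells with less Mbtps1 grow in mice. The list moved in both directions: 7 of 38 members rose, 9 fell and 22 did not pass (edgeR quasi-likelihood test, adjusted p under 0.05 over 13997 genes). Over all genes tested 38.4% were called, 20.1% as higher and 18.3% as lower, so the share of members called, 16 of 38, was near that of all genes. The median log2 fold change of the members was -0.0033, against 0.02 over all genes, with 18 positive and 20 negative. The groups did not overlap for 4 members that were higher and 6 that were lower, where 11.3% of all genes did so in each direction. Of these members, Stat2 and Parp9 were only just apart in CPM, and their groups overlapped with TMM scaling. The members made up 0.611% ± 0.0491 of all counts in control tumours and 0.572% ± 0.0175 in knockdown tumours (SD, n = 5 each).

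Oasl1 showed the largest change of the members in tumours. It encodes a catalytically inactive OAS-like protein that holds back the translation of Irf7. It stood at 69.7, 54.6, 82.8, 63.6 and 57.7 CPM in control tumours and at 36.4, 32.3, 20.7, 30.7 and 18.7 CPM in knockdown tumours. The highest knockdown library lay below the lowest control, and Oasl1 fell by 1.23 on the log2 scale (SE 0.17, edgeR adjusted p = 0.000313). None of its relatives passed: Oas1a had a log2 fold change of -0.32, Oas2 of 0.25, Oas3 of 0.08 and Oasl2 of -0.04. Oas1g, a close copy of Oas1a, had -0.30 (edgeR adjusted p = 0.0975).

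The members that act on the ISG15 system and on signalling split. Usp18 stood at 69.5, 63.0, 75.4, 61.7 and 62.0 CPM in control tumours and at 50.2, 43.7, 39.4, 51.8 and 37.7 CPM in knockdown tumours, with no overlap, and fell by 0.56 (log2, SE 0.09, edgeR adjusted p = 0.00086). Isg15 ranged from 162 to 204 CPM in controls and from 127 to 164 CPM in knockdown tumours and fell by 0.29 (SE 0.09, edgeR adjusted p = 0.0254). Irf7 stood at 395, 282, 383, 356 and 256 CPM in controls and at 248, 257, 201, 230 and 196 CPM in knockdown tumours. Only its highest knockdown and lowest control libraries met, and it fell by 0.55 (SE 0.13, edgeR adjusted p = 0.0054). Stat2 went the other way, from 218, 220, 209, 214 and 192 CPM to 220, 240, 360, 239 and 293 CPM (log2 fold change 0.38, SE 0.13, edgeR adjusted p = 0.0352). Its highest library was knockdown replicate 3, and without that library the value was 0.24 (edgeR adjusted p = 0.068). Irf9, which joins Stat2 in ISGF3, had a value of 0.17 (SE 0.08, edgeR adjusted p = 0.105).

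Among the sensors, both RIG-I-like genes with a passing value fell. Dhx58 stood at 78.1, 67.2, 78.0, 74.6 and 60.7 CPM in controls and at 46.6, 51.6, 53.2, 54.7 and 46.2 CPM in knockdown tumours, without overlap (fell by 0.49, SE 0.09, edgeR adjusted p = 0.0014). Rigi ranged from 235 to 264 CPM in controls and from 171 to 206 CPM in knockdown tumours (fell by 0.33, SE 0.08, edgeR adjusted p = 0.0053). Trim25, which modifies RIG-I, ranged from 166 to 213 CPM in controls and from 131 to 147 CPM in knockdown tumours (fell by 0.41, SE 0.08, edgeR adjusted p = 0.0020). Rigi, Dhx58 and Trim25 were each below all controls in every knockdown library, where 11.3% of all genes were so. Of 13 other genes on the route from sensing to interferon, 2 rose and 3 fell. Ifih1 had a value of -0.13 (SE 0.12) and Zbp1 of 0.21 (SE 0.09, edgeR adjusted p = 0.0723). Adar, the RNA-editing enzyme, ranged from 112 to 138 CPM in controls and from 88.6 to 111 CPM in knockdown tumours (fell by 0.32, SE 0.08, edgeR adjusted p = 0.0087), while the other enzymes of its group, Rsad2, Cmpk2, Eif2ak2 and Samhd1, did not pass, with values of -0.38, 0.08, -0.01 and 0.28.

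Lgals3bp fell in tumours although it rose in cells. It stood at 565, 433, 536, 549 and 485 CPM in control tumours and at 438, 342, 292, 424 and 253 CPM in knockdown tumours. The groups overlapped at one library each, and it fell by 0.54 (SE 0.14, edgeR adjusted p = 0.0082). The other members of its group gave 0.25 for Rtp4, which rose (SE 0.09, edgeR adjusted p = 0.045), -0.00052 for Bst2 and -0.23 for Ifitm3 (edgeR adjusted p = 0.0799).

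No IFIT, Mx or OAS gene was among the members that rose in tumours. Herc6, the ligase that attaches ISG15 in mice, stood at 54.6, 55.4, 64.3, 55.7 and 52.6 CPM in controls and at 76.4, 77.8, 90.4, 85.3 and 101 CPM in knockdown tumours, with no overlap (log2 fold change 0.62, SE 0.09, edgeR adjusted p = 0.00041). Xaf1, an antagonist of the apoptosis inhibitor XIAP, stood at 90.6, 96.3, 83.2, 89.5 and 80.7 CPM against 99.7, 114, 132, 113 and 123 CPM (0.42, SE 0.09, edgeR adjusted p = 0.0044). For both genes the lowest knockdown library lay above the highest control. Ifi44 ranged from 58.9 to 69.0 CPM against 67.8 to 90.7 CPM (0.39, SE 0.10, edgeR adjusted p = 0.0087), and Ifi35 from 108 to 142 CPM against 139 to 180 CPM (0.39, SE 0.11, edgeR adjusted p = 0.0136). Parp9, which acts with the ligase Dtx3l, ranged from 133 to 159 CPM against 160 to 173 CPM (0.21, SE 0.07, edgeR adjusted p = 0.0323), and Dtx3l itself had -0.18 (SE 0.14). Sp100, a nuclear body protein, Parp14 and Trim30a did not pass, with values of 0.18, 0.09 and 0.01. Of the IFIT and Mx genes none passed: Ifit1 had -0.19, Ifit2 0.13, Ifit3 -0.27, Mx1 -0.08 and Mx2 0.0049. Ifit3b, the close copy of Ifit3, fell by 0.61 (edgeR adjusted p = 0.0049).

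**Figure D3:**
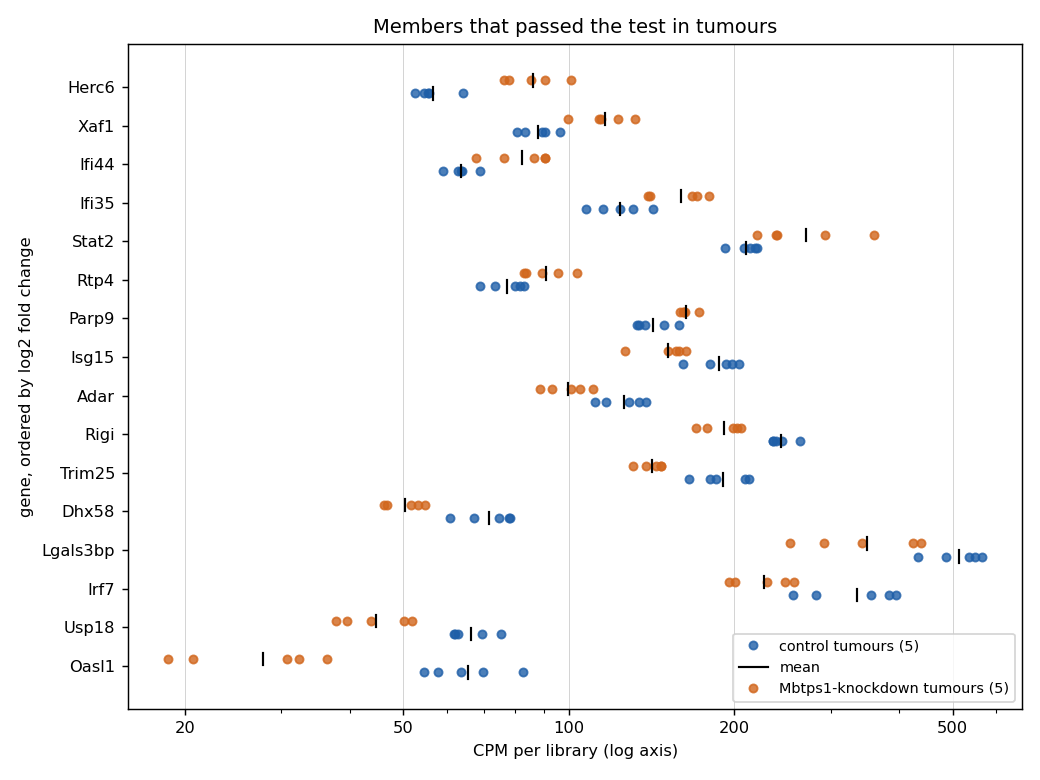
CPM in each of the 5 control (blue) and 5 knockdown (orange) tumour libraries, on a log axis, for the 16 members that passed the test in tumours, with the mean of each group as a black bar. Orange and blue points are fully apart on the lower side for Oasl1, Usp18, Dhx58, Trim25, Rigi and Adar. On the higher side they are fully apart for Herc6 and Xaf1. For Stat2 and Parp9 the nearest points almost touch, and with TMM scaling the groups overlap.

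The calls in tumours that hung on single libraries were those of Stat2, Rtp4, Parp9 and Isg15, each lost when some of the libraries were left out. The other 12 members called in tumours stayed called on leaving out any 1 library. Knockdown replicate 3 was the highest of the 5 knockdown libraries for 15 of 38 members, against 19.7% of all genes. In Oas2 it stood at 281 CPM, where the other knockdown tumours ranged from 142 to 204 CPM. Over all genes, knockdown replicates 3 and 5 stood apart from 1, 2 and 4: the chi-square per degree of freedom between libraries was 50.2 to 124 across these sets and 16.3 to 36.4 within them, and Oasl1 and Lgals3bp were lowest in replicates 3 and 5. Their part in the results was not tested beyond leaving each out.

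Set side by side, the knockdown effect differed between tumours and cells for a set of members, as tested in a single model over the 16 libraries and 12581 genes. The difference (log2 fold change in tumours minus that in cells) was negative for 10 of 38 members and positive for 0 by edgeR at an adjusted p under 0.05, and 1 by DESeq2 was positive. At an unadjusted p under 0.05 there were 17 members. Of all genes tested, 22.7% differed, 12.7% as higher and 9.95% as lower in tumours. The median difference over the members was -0.39, against -0.0061 over all genes. The cells and tumours share no library, and the spread is shared in the model. Whether they share knockdown and control lines is not given, so the fold changes may not be independent.

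Zbp1 gave the largest difference, -2.09 (SE 0.37, edgeR adjusted p = 0.00105), from a rise in cells to a value of 0.21 in tumours. Oasl1 gave -1.83 (SE 0.49, edgeR adjusted p = 0.0138), with 0.63 in cells and -1.23 in tumours, although its reads in cells were few (29 in all control and 47 in all knockdown libraries). The ratio of these reads, each divided by the library totals, was 1.56. Its exact 95% interval, which covers counting error only, was 0.959 to 2.56 and included no change. Rsad2 gave -1.46 (SE 0.37) and Ifit3 -1.31 (SE 0.30), both with a positive value in cells and a negative one in tumours. Isg15, Lgals3bp, Mx1 and Dhx58 gave differences of -1.11, -1.03, -0.97 and -0.96, and Ifitm3 and Bst2 gave -0.62 and -0.52. Each of these 10 had a positive value in cells, and control cell replicate 3 was the lowest control for all of them. Without that library 9 of the 10 still passed, Bst2 did not (-0.39, edgeR adjusted p = 0.096), and Stat2 passed as higher in tumours than in cells. The Bst2 call was also lost on leaving out knockdown cell replicate 1 or 3. Of the 10, 7 had a promoter window and 5 of those held ISRE letters (Ifit3, Isg15, Rsad2, Bst2 and Ifitm3, printed above), and of the 22 other members with a window 8 did. By edgeR no member was called in the same direction in cells and in tumours, and Lgals3bp was called in opposite directions. By sign alone, 15 members were positive in both and 4 negative in both. Another 16 were positive in cells and negative in tumours, and 3 the reverse. Trim25, called lower in tumours (-0.41), had -0.34 in cells without overlap, where DESeq2 called it lower. Xaf1, called higher in tumours (0.42), had 0.44 in cells.

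**Figure D4:**
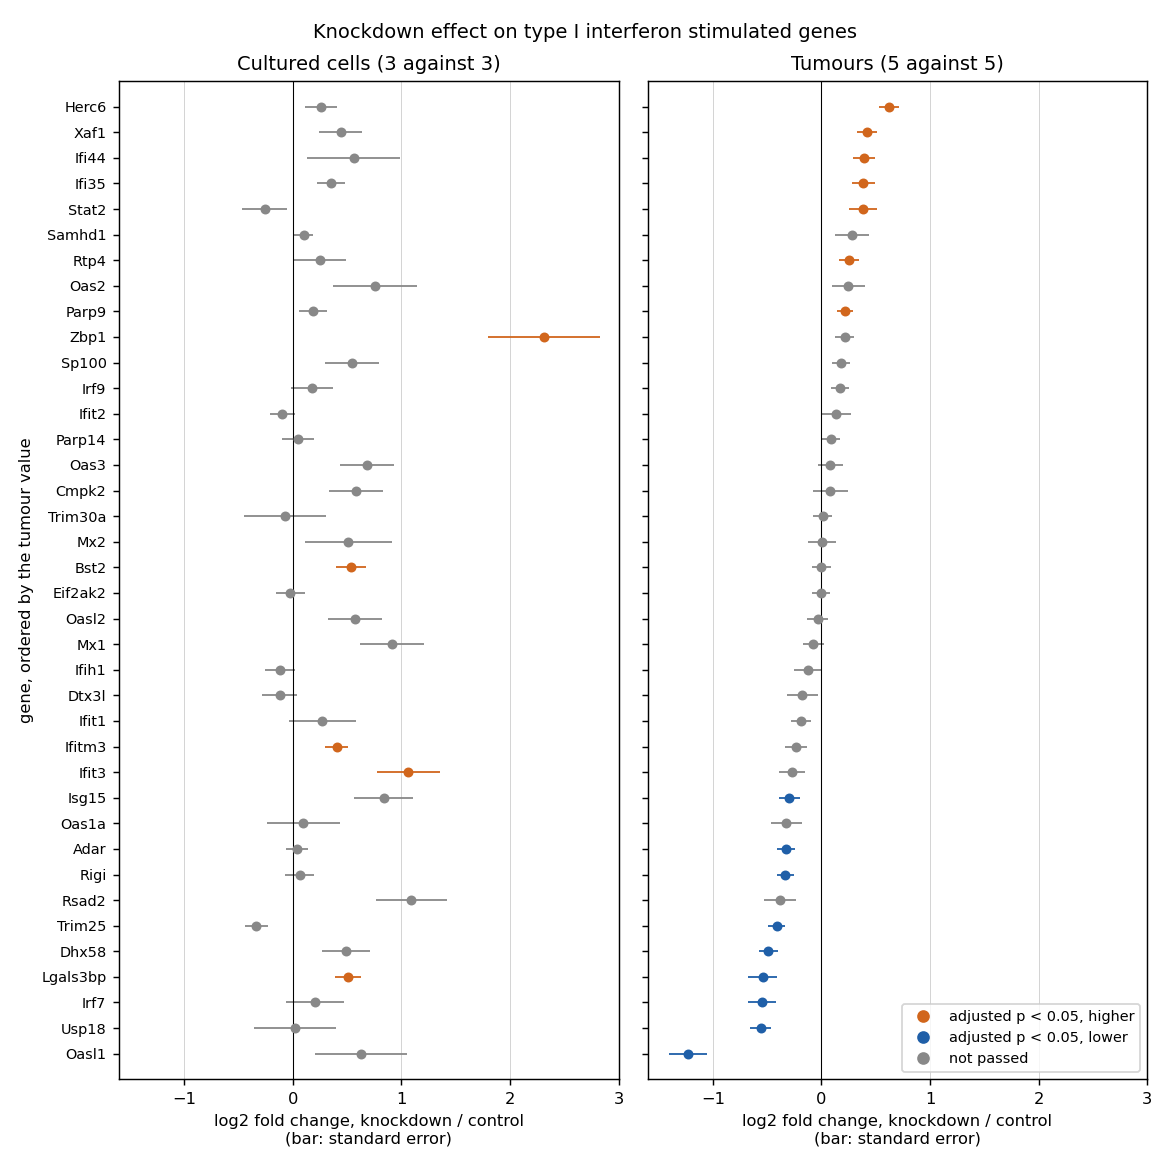
Log2 fold change of knockdown over control, with its standard error as a bar, for the 38 members in cultured cells (left, 3 against 3 libraries) and tumours (right, 5 against 5), ordered by the tumour value. Orange points passed as higher, blue points as lower and grey points did not pass; in cells the 5 called members are all higher, and in tumours 7 are higher and 9 lower.

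Growth as a tumour went with far higher levels of nearly the whole list. Against control cells, 36 of 38 members were higher in control tumours, 1 was lower and 1 did not pass (edgeR adjusted p under 0.05), where 75.5% of all genes tested were called, 39.3% as higher and 36.2% as lower. The median log2 difference was 2.91, against 0.05 over all genes. Zbp1 rose by 10.31 (SE 0.22), from at most 0.490 CPM in control cells to between 297 and 348 CPM in control tumours. Oasl1 rose by 6.74, Oas2 by 6.21, Irf7 by 6.09, Ifit3 by 5.77 and Oas1a by 5.60. The smallest passing rises were those of Trim25 (0.70), Rigi (0.72), Adar (0.84) and Samhd1 (0.96). Ifit2 stood at 45.0, 49.8 and 38.3 CPM in control cells and at 47.0, 29.4, 51.6, 40.3 and 36.6 CPM in control tumours, a difference of 0.01 (SE 0.15), unlike its relatives Ifit1 (3.46) and Ifit3. Eif2ak2 fell by 0.27 (SE 0.11, edgeR adjusted p = 0.0335), a call that was lost on leaving out any of 5 libraries. Leukocyte markers moved with this contrast: their summed level was at most 0.516 CPM in any cell library and between 536 and 1044 CPM in control tumours. Tumour cells and host cells cannot be told apart in these libraries.

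Per length of exon, the order of the levels differed between culture and tumour. Ifitm3 and Bst2 were first and second in all 4 groups, with 132 and 55.8 CPM per kilobase in control cells and 835 and 612 in control tumours. Lgals3bp (55.3) was close to Bst2 in control cells, and their libraries overlapped on that scale. Zbp1 was last of the 38 in control cells, at 0.0779 CPM per kilobase, and was in place 6 in control tumours, at 92.7. Irf7 went from place 30 (1.41) to place 7 (88.6) and Oas1a from place 27 to place 9. Eif2ak2 went the other way, from place 9 (11.7) to place 35 (8.84), and Ifit2 from place 10 to place 31. Between control and knockdown tumours the largest move was that of Oasl1, from place 18 (25.2 CPM per kilobase) to place 34 (10.6), and most other members kept their place within a few steps, where neighbours differ by less than their spread between libraries.

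**Figure D5:**
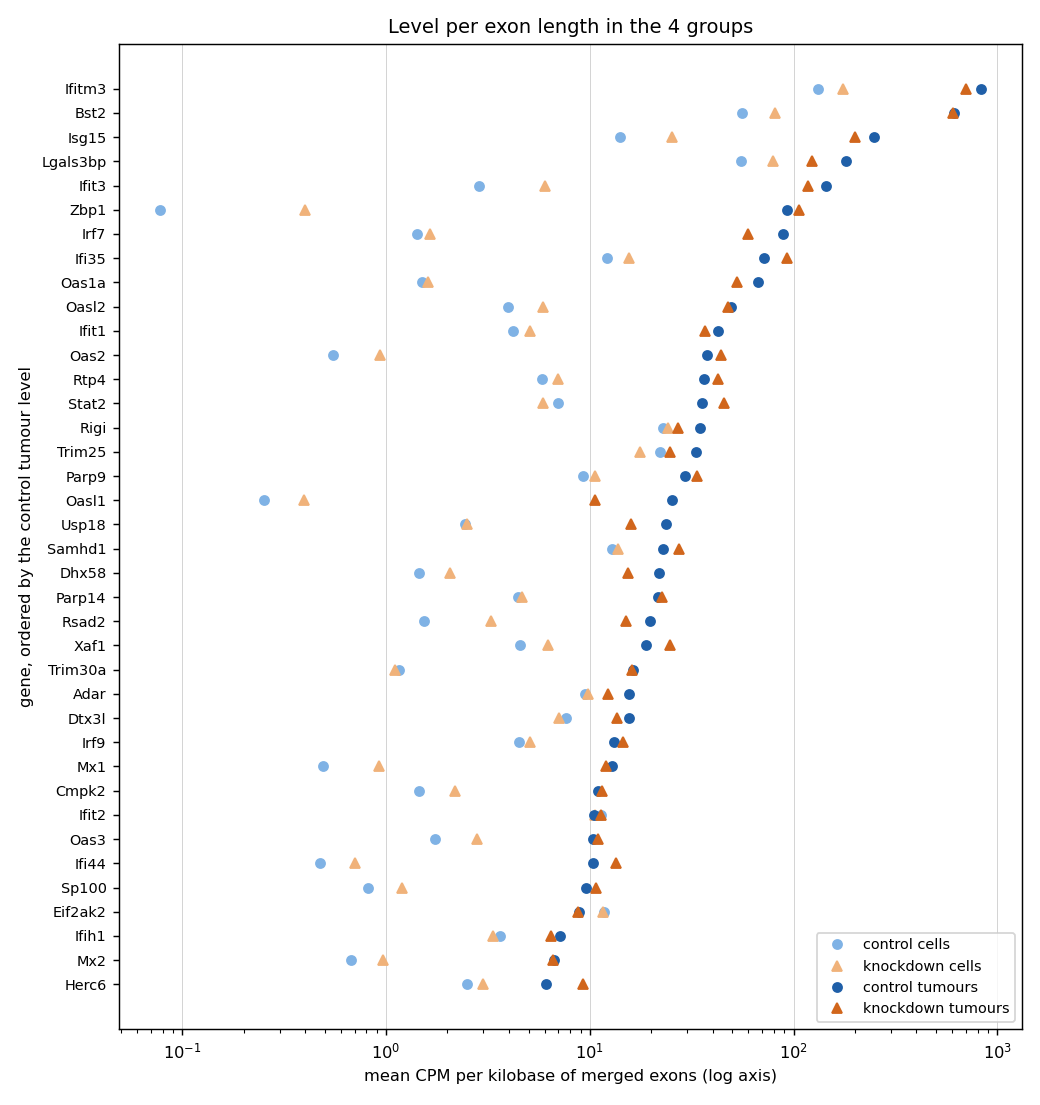
Mean CPM per kilobase of merged exons, on a log axis, for each of the 38 members in control cells, knockdown cells, control tumours and knockdown tumours, ordered by the level in control tumours. The tumour points lie to the right of the cell points for all members but Ifit2 and Eif2ak2, and the gap is widest for Zbp1.

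Upstream of the members, the ligands could hardly be read. Of 19 genes of type I and III interferons, Ifnb1 alone was in the table. It was at 0 in all cell libraries, where a 0 may hide a few reads. Its group means were 0.140 and 0.164 CPM in control and knockdown tumours, too few reads to test. The receptor genes Ifnar1 and Ifnar2 had log2 fold changes of 0.07 and 0.22 in cells and did not pass. In tumours Ifnar1 had 0.01, and Ifnar2 rose by 0.34 (edgeR adjusted p = 0.0174). Of 8 receptor and kinase genes tested, 0 were called in cells by edgeR (2 at an unadjusted p under 0.05). In tumours 2 of them rose, where 20.1% of all genes were called higher.

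Of the STAT and IRF factors outside the list, 1 rose and 1 fell of 6 tested in cells, and 3 rose and 1 fell of 7 in tumours. The shares of all genes called higher and lower were 3.76% and 5.57% in cells, and 20.1% and 18.3% in tumours. Irf1, the factor most tied to interferon gamma, had 0.33 in cells (edgeR adjusted p = 0.0946) and rose by 0.25 in tumours (edgeR adjusted p = 0.0344). Irf3, the factor that starts transcription of interferon beta, did not pass in either. Irf5 was called higher and Stat3 lower in both comparisons. On the route from sensing to interferon, Tbk1 and Ikbke, the kinases that activate IRF3, fell in cells by 0.63 (edgeR adjusted p = 0.00251) and 0.93 (edgeR adjusted p = 0.0168), and no other of 11 genes tested passed there. In tumours Tlr3 and Ikbke rose by 0.55 and 0.39, and Ticam1, Trex1 and Traf3 fell by 0.57, 0.35 and 0.23, which made 2 higher and 3 lower of 13. Among the negative regulators, Socs1, which blocks JAK kinases, rose in cells by 1.17 (edgeR adjusted p = 0.00264), the only one of 6 there, and had 0.17 in tumours (edgeR adjusted p = 0.331). In tumours 3 of 7 negative regulators rose, Ptpn2 by 0.75, Socs3 by 0.50 and Ptpn6 by 0.40, and Ptpn11 fell by 0.41. Without control cell replicate 3, Tbk1 (-0.61), Ikbke (-0.95), Socs1 (1.10), Irf5 (0.65) and Stat3 (-0.65) still passed in cells, with no other gene of these lists called. Of the 4 genes for ISG15 conjugation, which include the activating enzyme Uba7 (1.02 in cells, edgeR adjusted p = 0.0563), 0 passed by edgeR in either comparison (3 and 1 at an unadjusted p under 0.05).

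Beside the 38 members, other interferon-induced genes and genes known for interferon gamma were read as lists. The shares of all genes called higher and lower were 3.76% and 5.57% in cells, and 20.1% and 18.3% in tumours. Of 31 other interferon-induced genes tested in cells, 3 rose (Mndal by 1.03, Apol9b by 1.02 and Apol9a by 0.95) and 1 fell, with a median of 0.14. Without control replicate 3 the same 3 rose and 0 fell of 32 (7 at an unadjusted p under 0.05), with a median of 0.10. In tumours 17 of 43 rose and 4 fell, with a median of 0.23, and those with the smallest p were Gbp7 (1.06), Gbp3 (0.76) and Aim2 (0.90). Of the interferon gamma response genes, 11 of 20 rose in cells and 20 of 27 in tumours, none fell in either by edgeR, and the median log2 fold change was 0.69 in both. In cells without control replicate 3, 9 of 21 rose, with a median of 0.68. Examples are Cxcl10, a chemokine for T cells, with 0.99 in cells and 0.92 in tumours, and Gbp4, a guanylate-binding protein, with 1.44 and 1.27. Against these, the 38 members had medians of 0.31 in cells and -0.0033 in tumours. No test between the lists was made. Of the paralogues of members, none of 7 passed in cells by edgeR (1 at an unadjusted p under 0.05), and in tumours 1 of 13 rose (Ifitm1, 0.45) and 3 fell (Ifit1bl1, Ifit3b and Ifitm2, by 0.63, 0.61 and 0.26).

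Markers of immune cells moved with the tumour comparison. Among all genes tested there, 20.1% were called higher and 18.3% lower. Ptprc, the common leukocyte antigen, rose by 1.06 (edgeR adjusted p = 0.000255), and 4 of 7 leukocyte markers rose, with summed levels of 536 to 1044 CPM in control and 735 to 1073 CPM in knockdown tumours. The summed level of 9 T cell markers was 46.5 to 106 CPM in control and 111 to 144 CPM in knockdown tumours, with 6 of 9 higher, and that of 7 natural killer cell markers was 18.1 to 38.4 CPM against 61.4 to 85.2 CPM, with all 7 higher. Macrophage and monocyte markers overlapped, at 2784 to 5113 CPM against 2941 to 4949 CPM, with 3 of 10 higher. Of the dendritic cell markers 3 of 6 rose and none fell by edgeR (4 at an unadjusted p under 0.05), Xcr1 by 1.70, Clec9a by 0.95 and Batf3 by 0.82. Their summed level was 52.0 to 76.9 CPM in control and 78.4 to 100.5 CPM in knockdown tumours. Cultured cells also read Clec9a (mean 21.7 CPM) and Zbtb46 (9.03 CPM). There the list summed to 30.0 to 33.4 CPM in control and 29.1 to 31.7 CPM in knockdown libraries. The host share of the tumour level was not tested. Of the markers of plasmacytoid dendritic cells, which make much type I interferon, 2 of 6 had enough reads, Cox6a2 and Tcf4, and both fell, by 0.67 and 0.55. Siglech, the most specific of that list, had means of 0.540 and 0.197 CPM, too few to test, and both Cox6a2 and Tcf4 were also read in cultured cells. Fibroblast markers summed to 3431 to 4354 CPM in control and 2628 to 3426 CPM in knockdown tumours, and 1 of 6 rose and 3 fell. All but Lum were also read in cultured cells, summing to 1280 to 1965 CPM in control and 1170 to 1384 CPM in knockdown libraries. Of 5 tested there, Pdgfra fell by 0.39 and Dpt rose by 0.77, so the fall in tumours cannot be assigned to host fibroblasts. Endothelial markers summed to 88.8 to 133 CPM against 72.7 to 114 CPM, and 2 of 6 fell. Neutrophil markers summed to 16.1 to 26.8 CPM against 22.6 to 36.4 CPM, with 1 of 3 tested higher and 1 lower, and the 1 B cell marker tested did not pass. The part of these markers in the changes of the members in tumours was not tested. In cultured cells, 6 of 7 leukocyte markers were at 0 in every library.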

How the data were processed

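Counts of 16 RNA-seq libraries were used as deposited by the authors, whole reads per gene symbol with no normalization. Per the submitters' processing notes STAR 2.7.1a, HTSeq 0.13.5, Cufflinks 0.17.3, SAMtools 1.3.1, cutadapt 1.18 and FastQC 0.11.9 were used. Those notes name hg38, whereas 95.9% of the symbols are mouse symbols of GENCODE M21, and the sources used here give neither the mouse build nor the use of strand. Per the labels' protocols, mRNA was captured on beads. Symbols with summed counts under 13 in cells or 15 in tumours were at 0, so low genes may have been removed. The 2 screen libraries were not used here.

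Groups came from the labels. Each comparison was fitted over all genes with edgeR 4.0.16 (R 4.3.3), with TMM scaling, filterByExpr, robust quasi-likelihood and Benjamini-Hochberg adjustment, called at 0.05. Cells and tumours were fitted apart for the knockdown effect and together for their difference. The fit was tested on simulated data. Other scalings, filters, DESeq2 1.42.0, limma 3.58.1 with voom, a replicate block and each library left out were tried. CPM are on library totals. The replicates differed beyond sampling noise (lowest chi-square per degree of freedom 5.87). Every member is accounted for, those past the threshold by name; from other lists up to 3 past the threshold with the smallest p are named, plus fixed pathway genes, and markers by list. Sequences are RefSeq's. Members and lists were chosen with earlier results of these data known. The values of 1 gene are not reported here.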

Additional observations from a re-analysis of the deposited data

Results flagged for a closer look

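For 10 members the knockdown effect in tumours was lower than that in cells, by the test of the difference itself in edgeR over 12581 genes, where 9.95% of genes were lower. The differences on the log2 scale were -2.09 for Zbp1 (adjusted p = 0.00105), -1.83 for Oasl1 (0.0138), -1.46 for Rsad2 (0.00996), -1.31 for Ifit3 (0.00528), -1.11 for Isg15 (0.00711), -1.03 for Lgals3bp (0.0029), -0.97 for Mx1 (0.00839), -0.96 for Dhx58 (0.00285), -0.62 for Ifitm3 (0.0101) and -0.52 for Bst2 (0.0274). Control cell replicate 3, the lowest control for all of these genes, enters each value, and Bst2 did not pass without it. Bst2 also did not pass without knockdown cell replicate 1 (-0.48, edgeR adjusted p = 0.065) or 3 (-0.47, edgeR adjusted p = 0.0771). With the replicate number as a block it did not pass either (-0.52, edgeR adjusted p = 0.0691). Oasl1 did not pass without knockdown cell replicate 3 (-1.80, adjusted p = 0.0509) or with limma voom (-1.90, adjusted p = 0.0821).

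In 3 of 76 groups of 5 tumours a library lay far from the others of its group by Dixon's criterion, which chance alone meets in about 1 group in 20. Mx2 was 31.7 CPM in knockdown tumour replicate 3. Herc6 was 64.3 CPM in control tumour replicate 3. Parp9 was 173 CPM in knockdown tumour replicate 1.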

How the results depend on the processing

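Leaving out 1 library at a time moved the cell comparison most: the genes called ranged from 290 to 1531, the members higher from 0 to 5 and the members lower from 0 to 1. In tumours the members higher ranged from 4 to 8. For the difference between tumours and cells the genes called ranged from 1667 to 3359 and the members higher from 0 to 1. For control tumours against control cells the members lower ranged from 0 to 1. Fewer samples enter these fits. With the DESeq2 test 1 member was lower in cells (Trim25), and 1 was higher for the difference (Stat2); the cause was not tested. The members lower in tumours and for the difference, and the members higher in tumours against cells, stayed within 1.5 times under the alternatives run. Among the alternatives run, direction changed only in members that had not passed in that comparison. The next ranges cover the fits that leave out 1 library. In cells, the range was Ifit1 -0.045 to 0.54, Oas1a -0.19 to 0.34, Usp18 -0.38 to 0.47, Irf7 -0.064 to 0.42, Irf9 -0.030 to 0.33, Rigi -0.035 to 0.20, Parp14 -0.11 to 0.16, Trim30a -0.43 to 0.18, Eif2ak2 -0.15 to 0.12, Dtx3l -0.28 to 0.017 and Adar -0.030 to 0.11. In tumours, the range was Mx2 -0.14 to 0.053, Oas3 -0.00011 to 0.15, Oasl2 -0.13 to 0.0030, Bst2 -0.041 to 0.046, Cmpk2 -0.0089 to 0.19, Trim30a -0.036 to 0.049 and Eif2ak2 -0.050 to 0.025. For the difference between tumours and cells, the range was Irf9 -0.13 to 0.22, Ifih1 -0.11 to 0.11, Ifi44 -0.46 to 0.31, Ifi35 -0.040 to 0.11, Parp14 -0.056 to 0.21, Rtp4 -0.17 to 0.26, Xaf1 -0.13 to 0.23, Trim25 -0.15 to 0.013, Trim30a -0.15 to 0.46, Eif2ak2 -0.11 to 0.17, Dtx3l -0.18 to 0.11 and Parp9 -0.050 to 0.18. For control tumours against control cells, the range was Ifit2 -0.078 to 0.11. Other settings turned the sign of some of the same members. With library totals in place of TMM, Mx2 (-0.014) and Trim30a (-0.0053) turned in tumours, Irf9 (-0.019), Ifih1 (-0.027), Rtp4 (-0.011), Xaf1 (-0.034) and Eif2ak2 (-0.0012) in the difference, and Ifit2 (-0.085) in tumours against cells. With limma voom, Trim30a (0.0054) turned in cells, Mx2 (-0.0037) and Bst2 (0.0010) in tumours, Irf9 (-0.0048) and Xaf1 (-0.046) in the difference, and Ifit2 (-0.0088) in tumours against cells. Ifit2 was -0.024 with the size factors of DESeq2 and with its test, and Xaf1 was -0.0012 in the difference with the stricter filter.

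The correlations gave no sign that the replicate numbers pair the samples. Same-numbered libraries correlated at -0.19 to 0.05 (cells) and -0.20 to 0.16 (tumours), and libraries did not all correlate best with their own number. With 3 libraries per group in cells and 5 in tumours, this check cannot exclude a pairing. With the replicate number as a block, 508 genes were called in cells and 4 members were higher there, 4 members were higher and 10 lower in tumours, 12 were lower in the difference, and 0 were lower in tumours against cells. In that fit the sign of Mx2 (-0.013) and Bst2 (0.0026) turned in tumours, and that of Irf9 (-0.0084) and Xaf1 (-0.042) in the difference. Depth limits Zbp1 and Oasl1 in cells, which rest on 12 and 29 control reads in all.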
